A study of Mus musculus with 4 samples.

Results

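In mouse leukemia cells lacking Tet2, 4646 of 505648 chromosomal positions listed as unconverted by bisulfite carried the names of 2 or more genes at once, 0.919% of the chromosomal list. They were chosen by that property alone, a label field with at least 2 different gene names, and not by any measured value. The shared sites fell on 20 chromosomes under 184 different combinations of labels. A further 475190 sites carried 1 gene label and 25812 carried none. The word overlapping holds for only some of them, because for 1904 sites (41.0%) the RefSeq span of a second named gene lay somewhere else in the genome.

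The libraries came from cultured NRAS/AE9a leukemic cells, labelled as AML (acute myeloid leukemia) cells and carrying NRAS together with AE9a, a shortened AML1-ETO fusion protein. There were 2 WT and 2 Tet2 KO libraries, all of poly(A) RNA treated with bisulfite. Both genotypes were kept in medium with 3 murine cytokines, 50 ng/ml of SCF and 10 ng/ml each of IL-3 and of IL-6, under selection by 1 mg/ml of G418 plus 2 µg/ml of puromycin. How Tet2 was removed, whether the KO line is 1 clone and whether the replicates are different cultures is not in the labels, and the spread between replicates may be technical. The deposited table lists KO positions, and whether the word for unique in its name means unique to the KO is not stated. It gives values combined over the KO replicates and none for WT, and hence the genotypes were not compared and no site is called KO-specific here. Among genes fixed as markers, 5 of 8 myeloid blast genes had listed sites (Mpo 217, Kit 106, Spi1 47, Prtn3 44 and Elane 23), and Ctsg, Ms4a3 and Cebpe had 0. The pancreatic hormone genes had sites in 6 of 6 cases, from 12 in Ppy to 228 in Gcg, and the T and B cell genes in 0 of 4. None of these 18 genes carried a second label, and what their sites have to do with the shared sites was not tested.

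Cytosine in RNA is read as uracil after bisulfite treatment unless it is methylated, and 5-methylcytosine is a modified base found in tRNA, rRNA and some messenger RNA. The level of a site is the fraction of the reads used there that still show cytosine. Genes can share a position in several ways: a small RNA gene can sit inside an intron of its host, a short intronless gene can sit inside a longer gene, and a read-through transcript can run from one gene into the next. A short read from such a place cannot be assigned to one of the genes, and a table that labels by position then names both.

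Where the reference sequence could be read, the listed positions were not all cytosines. No genome was used here, so the base was known for only 93 shared sites, those inside a RefSeq miRNA hairpin or a promoter window (250 bases before to 50 after the gene start, build GRCm38.p6). On the strand of the site the reference base was C at 52 of the 93 (55.9%, exact 95% interval 45.2 to 66.2%), G at 29, A at 12 and T at 0. Among 6090 other sites checked in the same way it was C at 52.8%, G at 29.4%, A at 17.7% and T at 0. Moving the position by 1 base either way brought T to 17.4% and 18.9%, so that the positions are read as counted from 1. The median level was 0.5575 at C, 0.647 at G and 0.7525 at A among the shared sites. Among the others checked it was 0.688 at C, 0.667 at G and 0.6 at A, the reverse ranking. At C positions a median of 64.7% of the covering reads entered the level, at G positions 86.3% and at A positions 84.0%. A level at a G or A position is not the methylation level of a reference cytosine. Why such positions were listed was not tested, and the base under the remaining shared sites was not analysed here.

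The hairpins below show this directly, because a miRNA inside a host gene is the plainest case of a position with 2 names. miRNAs are short regulatory RNAs cut from a hairpin precursor, and their bases 2 to 8, the seed, pair with target messages. In all, 60 shared sites lay in 32 of the 1005 hairpins of the RefSeq table, and 14 were called in both KO replicates. By position, 26 lay within a mature sequence, 6 of these in a seed. The libraries are of poly(A) RNA, and a read over a hairpin can come from the host transcript. Levels given below by base of a miRNA are levels at those positions, not measurements of the mature miRNA. These 60 are 57 of the 66 sites of miRNAs nested in a host plus 3 of other combinations. Mir1903 in Nrp1, with 6 sites and a median level of 0.618, and Mir3113 in Huwe1, with 3 sites, make up the other 9. Shown are 4 hairpins with 4 or more sites and those of well-known blood miRNAs, 5′ to 3′ from RefSeq (GRCm38.p6), with every listed position in capitals.

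Mir546 in Ctdsp2 (chr10:126998440-126998560, plus strand): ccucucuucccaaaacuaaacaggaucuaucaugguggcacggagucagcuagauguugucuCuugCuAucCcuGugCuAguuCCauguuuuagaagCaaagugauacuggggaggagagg
Mir223 in F630028O10Rik (chrX:96242817-96242926, plus strand): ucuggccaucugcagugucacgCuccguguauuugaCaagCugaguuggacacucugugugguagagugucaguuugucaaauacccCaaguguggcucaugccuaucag
Mir6516 in Snhg20 (chr11:117077348-117077457, plus strand): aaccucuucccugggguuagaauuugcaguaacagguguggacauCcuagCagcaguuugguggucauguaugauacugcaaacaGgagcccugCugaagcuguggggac
Mir761 in Nrd1 (chr4:109017655-109017730, plus strand): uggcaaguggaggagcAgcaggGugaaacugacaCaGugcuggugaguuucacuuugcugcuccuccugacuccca
Mir23b in 2010111I01Rik (chr13:63300484-63300557, plus strand): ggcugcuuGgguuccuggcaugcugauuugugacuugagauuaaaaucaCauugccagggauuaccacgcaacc
Mir27b in 2010111I01Rik (chr13:63300712-63300784, plus strand): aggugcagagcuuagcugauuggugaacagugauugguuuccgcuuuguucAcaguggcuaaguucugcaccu
Mir24-1 in 2010111I01Rik (chr13:63301208-63301275, plus strand): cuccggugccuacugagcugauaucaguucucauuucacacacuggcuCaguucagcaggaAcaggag
Mir92-1 in Mir17hg (chr14:115044427-115044506, plus strand): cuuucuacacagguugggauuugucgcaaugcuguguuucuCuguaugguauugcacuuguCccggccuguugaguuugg

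Mir546, inside Ctdsp2, which encodes a phosphatase of the RNA polymerase II tail, held 10 sites within its 121 bases, more than any other of these hairpins. Of these 7 were on C, 1 on G and 2 on A, and 3 were called in both replicates. Levels ran from 0.286 at the G site to 0.917 at a C site. At the first 4 of 14 reads used showed cytosine (Wilson 95% interval 0.117 to 0.546), and at the second 11 of 12 (0.646 to 0.985). The best replicated of them, on the last capital C, had 0.5 in one KO library and 0.538 in the other, with 27 covering reads on average. At these depths of 10 to 14 reads used per single call, most intervals overlapped one another. Intervals cover counting error only, as reads are not independent molecules.

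Mir223 makes miR-223, a miRNA abundant in granulocytes and monocytes. Its 4 sites were all on C. The site before the mature sequences kept all 10 of 10 reads unconverted (Wilson 95% interval 0.722 to 1). In miR-223-5p, base 12 had 0.364 in one replicate and 0.7 in the other, a mean of 0.532 ± 0.238 (SD, n = 2), and base 16 had 4 of 11 reads. Base 21 of miR-223-3p had 6 of 13 reads unconverted.

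Mir761, in the protease gene Nrd1, had the highest levels of the 4-site hairpins, from 0.842 to 1. Only 1 of its 4 sites was a C, with 0.924 and 1 in the replicates. At the A site 16 of 19 reads showed cytosine, and at the G sites 18 of 21 and 12 of 12. The levels at these A and G sites are not levels of a reference cytosine. In Mir6516, which lies in the snoRNA host gene Snhg20, the 4 sites ran from 0.25 to 0.596 and 2 were called in both replicates, with 0.2 and 0.462 at one and 0.5 and 0.692 at the other.

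The cluster of Mir23b, Mir27b and Mir24-1, which lies in 2010111I01Rik (now Aopep, an aminopeptidase gene), held 5 sites. In miR-24-3p, base 6 is a seed C, with 0.3 in one replicate and 0.416 in the other (mean 0.358 ± 0.082, SD, n = 2). The miR-27b-3p seed site, base 4, is an A, where 5 of 10 reads showed cytosine. Mir92-1, a member of the oncogenic cluster made from Mir17hg, had a replicated C site in the loop (0.545 and 0.889) and 8 of 10 reads at base 13 of miR-92a-3p. No seed was shared: the 19 mature sequences with a shared site had 19 different seeds. The mature sequences whose seed held a site or that belong to these blood miRNAs are given next, with the seed in capitals.

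mmu-miR-24-3p: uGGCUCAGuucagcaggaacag
mmu-miR-27b-3p: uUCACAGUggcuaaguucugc
mmu-miR-761: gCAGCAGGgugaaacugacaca
mmu-miR-5113: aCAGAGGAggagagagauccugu
mmu-miR-6910-3p: uCAUGGUUuccacccuuugucc
mmu-miR-7676-5p: aGGGCAGUaugauggccucugau
mmu-miR-223-5p: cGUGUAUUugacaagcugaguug
mmu-miR-223-3p: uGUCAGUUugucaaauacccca
mmu-miR-92a-3p: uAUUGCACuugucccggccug

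Over all shared sites the median level was 0.533 with quartiles of 0.368 and 0.714, against 0.526 (0.364 and 0.7) for sites with 1 label. Coverage had a median of 17 reads (quartiles 13 and 24, range 10 to 155), against 18, and a single call used a median of 12 reads. The list itself starts at a level of 0.2 and 10 covering reads, so lower values are not seen. Both KO replicates made the call at 647 shared sites, which is 13.9% (exact 95% interval 12.94 to 14.95%), beside 14.2% of all chromosomal sites and 14.3% of sites with 1 label. A level of 0.8 or more was reached by 867 shared sites, 18.7%, beside 17.3% of all chromosomal sites. These shares are near the background and single out nothing about shared sites.

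Within the 647 sites called in both libraries the replicates differed by a median of 0.1 in level, and 131 of them differed by over 0.2. At sites with 1 label the median difference was also 0.1. Another listed site lay within 10 nt on the same strand for 71.1% of shared sites and for 70.1% of sites with 1 label.

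Strand divided the sites most clearly. The plus strand held 4592 shared sites with a median level of 0.538 and the minus strand 54 with a median of 0.222, although 28 of the 184 combinations were on the minus strand. Sites with 1 label showed the same split, with medians of 0.529 and 0.231. Both replicates made the call at 2 of the 54 minus-strand shared sites (3.7%, exact interval 0.45 to 12.7%). Among minus-strand sites with 1 label it was 433 of 4143 (10.5%), a share inside that interval. What sets the strands apart was not tested.

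Of the arrangements looked for, gene pairs on opposite strands, tail to tail or head to head, gave 0 shared sites. The labels follow the strand: 22998 chromosomal sites lay inside a gene of the other strand, 196 of them shared sites, and 0 were labelled with it. For genes on the same strand the naming was less complete. Of 2455 sites inside at least 2 RefSeq spans of their own strand, 1680 carried 2 or more labels, 739 carried 1 and 36 none. Gene strand was known for 240 of the 364 labels, so the count of 0 covers those.

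The shared sites were placed into classes by RefSeq spans. A gene of unknown strand was counted as on the same strand. Neither strand was known for some pairs, among them Prps1l3 with Mipol1, Rad54b with Fsbp and Chmp1b with Gnal. For such pairs the same strand is assumed. Read-through combinations numbered 15 with 1032 sites (22.2%), pairs nested on the same strand 94 with 1037 sites (22.3%) and partial overlaps 18 with 314 sites (6.76%). Spans that do not overlap made up 48 combinations with 1904 sites. There were 2 combinations, with 197 sites, of 1 gene under 2 names, and 7, with 162 sites, had a label without a RefSeq match. The median level was 0.545 in read-through, 0.5 in nested, 0.5665 in partial overlaps and 0.533 where spans did not overlap. The shares called in both replicates were 13.7%, 14.9%, 14.6% and 13.7% in the same order, and each exact interval held the 14.2% of all sites.

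**Figure D1:**
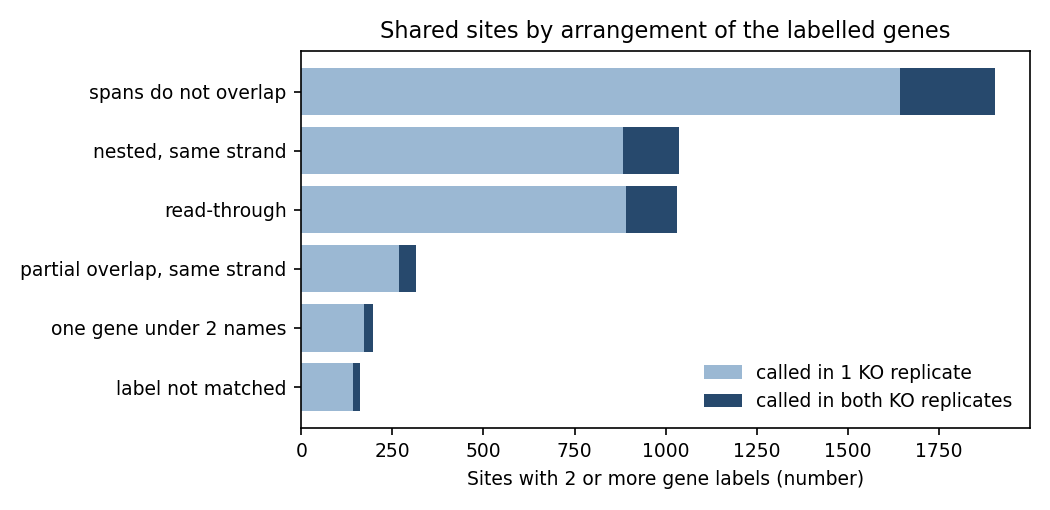
Number of shared sites in each arrangement of the labelled genes (horizontal bars, from 0), split into sites called in 1 KO replicate (light) and in both (dark). Spans that do not overlap form the longest bar, 1904 sites, and the dark part is a similar share of every bar, from 12.2% to 14.9%.

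A few gene pairs held much of the total. The 10 combinations with the most sites held 1472 of them (31.7%), while 52 combinations had 1 site and the median was 6. Among the 10 largest were Akap2 with Pakap and Cmtr1 with its read-through, both at 196, Utp14b with Acsl3 at 175, Trim37 with Mir8115 at 174 and Clk2 with its read-through at 137. Others were Itga6 with Mir5098 at 133, Tmppe with Glb1 at 126, Ube2j2 with Gm5801 at 105 and Glrx3 with Gm12669 at 98. Akap2 and Pakap are names of 1 RefSeq gene, a kinase-anchoring protein gene on chromosome 4. Its sites had a median level of 0.5, a median coverage of 15 reads and 24 calls in both replicates, so that the joint largest combination is no overlap at all.

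**Figure D2:**
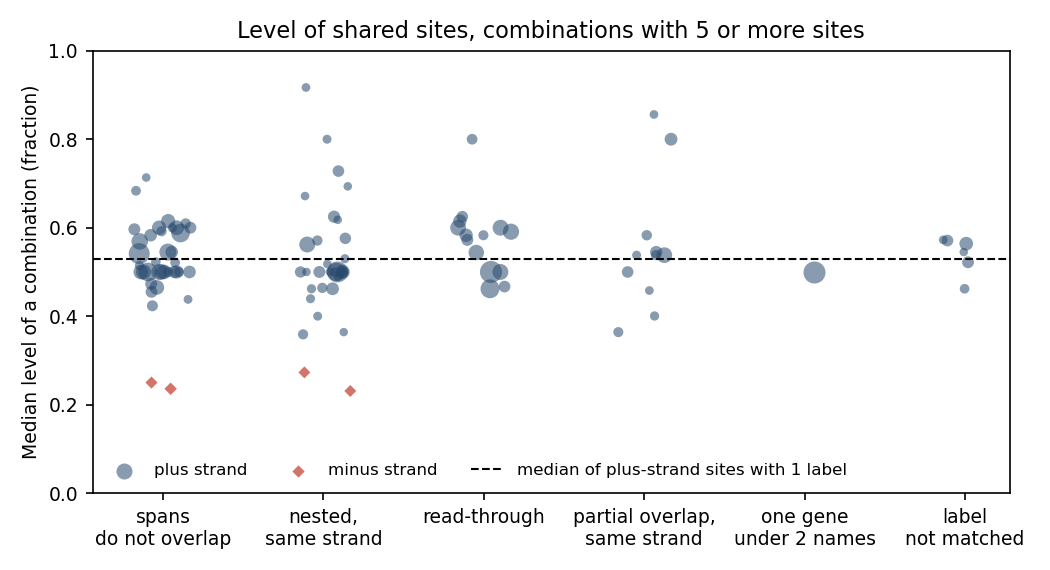
Median level (vertical axis, fraction of reads used) of each label combination with 5 or more sites, by arrangement; point area grows with the number of sites, circles are plus-strand and diamonds minus-strand combinations. Circles gather around the dashed line, the 0.529 median of plus-strand sites with 1 label, and all 4 diamonds lie below 0.3.

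Read-through transcripts join neighbouring genes of one strand into 1 RNA. The rules used found 8 such labels, 4 by a joint name and 4 by a span that covers its neighbours, and 1062 sites carried one. The span rule finds a label only where both neighbours shared sites with it. Other read-through labels may therefore stand among the nested pairs. Of these, 1032 were shared with a partner gene and 30 (2.82%) carried the read-through name alone. All 15 partner genes had each of their sites shared, so no site of these genes can be given to the single-gene transcript by its label.

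Rnf8-cmtr1 was the largest. Rnf8 encodes a ubiquitin ligase that acts at DNA breaks, and Cmtr1 a methyltransferase of the mRNA cap. On chromosome 17 (mm10), Rnf8 held 89 shared sites with a median level of 0.5 and Cmtr1 196 with a median of 0.5. The 18930 bp between the genes held 0 listed sites, although the read-through label would cover them. Empty stretches also lay inside both genes, in Cmtr1 for example from 48.447 to 59.372 kb past the start of the read-through. Rnf8 had 18 sites called in both replicates (20.2%) and Cmtr1 23 (11.7%), and the exact intervals of these shares overlapped. The most deeply covered site of Cmtr1, at 29699275 with 153 reads, kept 33 of 123 reads unconverted (Wilson 95% interval 0.198 to 0.353). In Rnf8 the position 29627111 had 0.562 in one replicate and 0.596 in the other, at a mean of 60 covering reads, and 29627107 beside it had 45 of 78 reads.

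**Figure D3:**
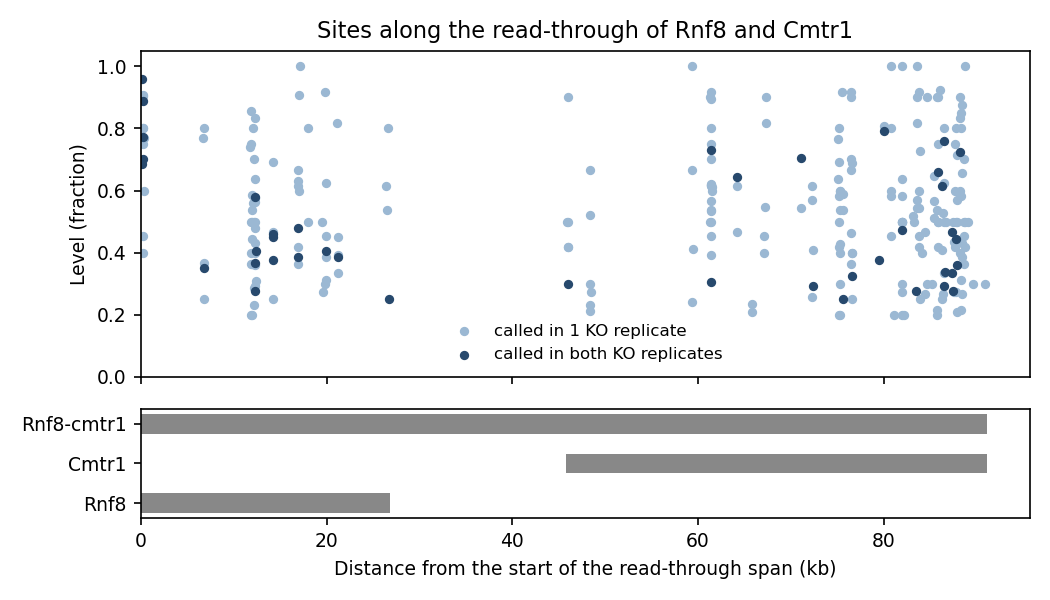
Upper panel, level of each shared site (vertical axis, fraction) by its distance in kb from the start of the Rnf8-cmtr1 span, light for 1 KO replicate and dark for both; lower panel, RefSeq spans of the genes. Sites lie in clusters along Rnf8 and Cmtr1, with 89 and 196, with empty stretches inside both genes, and the gap between the genes is empty too.

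Gm20605 spans Lrch4, which encodes a leucine-rich repeat membrane protein, and Sap25, which encodes a component of the Sin3 corepressor complex. Lrch4 held 93 shared sites with a median level of 0.591, 23 of them in both replicates (24.7%), and Sap25 held 54 with a median of 0.615. Among the 6 read-through labels with a gap between their partners, it was the one with sites in the gap. This gap of 373 bp held 11 sites, all labelled with Gm20605 alone, with a median level of 0.673 and a median coverage of 49 reads, and 0 of them were called in both replicates. In Sap25 the position 137642657 kept 44 of 54 reads unconverted (0.692 to 0.896), and in Lrch4 the position 137637625 kept 41 of 52 (0.66 to 0.878), both on chromosome 5.

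Clk2 encodes a kinase of splicing factors and Scamp3 a membrane protein of secretory vesicles. Clk2 held 137 sites with a median of 0.462 and Scamp3 33 with a median of 0.625. Their quartiles, 0.333 to 0.636 and 0.4 to 0.833, overlapped widely. A Scamp3 site at 89180789 on chromosome 3 had 61 covering reads, but its level of 0.833 rested on 10 of 12 reads used.

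Nup62, a nuclear pore gene, held 87 sites under its joint label Gm21948, with a median of 0.6, and Il4i1, the gene of a secreted amino acid oxidase, held 38 with a median of 0.5725. The Nup62 position 44829283 on chromosome 7 was the highest shared site at 50 or more covering reads, with 0.8 in one replicate and 1 in the other (mean 0.9 ± 0.141, SD, n = 2). A mean of only 9 unconverted reads lay behind it. At 44830066 the replicates had 0.508 and 0.54, with a mean of 65 covering reads, a tighter pair of values at a deeper site.

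The other read-through labels were smaller. Xntrpc joins Xndc1 and Trpc2, a cation channel gene known from pheromone-sensing neurons. The 35 sites that carried Trpc2 had all 3 names, lay within 517 bp, and had a median of 0.467, with 11 in both replicates. The 89 sites with Xndc1 and Xntrpc only had a median of 0.6. Gm28042 shared 54 sites with Jmjd7, a hydroxylase gene (median 0.583), and 1 with Pla2g4b, a phospholipase gene. Clcf1-pold4 shared 19 sites with the cytokine gene Clcf1 and 25 with Pold4, a DNA polymerase delta subunit gene, whose median of 0.8 was the highest of the read-through partners. The label 2310045n01rik-mef2b shared 82 sites with Borcs8, which encodes a subunit of a lysosome-positioning complex, and 19 sites carried it alone, with a median level of 0.583.

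Nesting on the same strand includes the classical case of a gene within a gene. Apart from small RNAs and pseudogenes, 33 combinations with 850 sites were nested, with a median level of 0.5. The class was set by spans alone, so it also holds combinations of the Ugt1a genes, which share their last exons. Long labels that share a start or an end with the gene inside are in it too, such as Prn over Prnp and Gm44505 over Zfp91. Utp14b, an rRNA-processing gene needed for sperm formation, lies at one end of Acsl3, which encodes a long-chain acyl-CoA synthetase. It shared 175 sites with Acsl3 over a span of 9777 bp on chromosome 1, while the rest of Acsl3 held 176 sites with its name alone. Shared and Acsl3-only sites had medians of 0.5 and 0.4985 and coverages of 19 and 20 reads. Calls in both replicates were most numerous here of all combinations, 43 of 175 (24.6%), beside 22.2% of the Acsl3-only sites. Density was 17.9 sites per kb in the Utp14b span and 4.38 per kb in the rest of Acsl3.

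Tmppe, encoding a transmembrane phosphoesterase, lies within Glb1, the gene of lysosomal beta-galactosidase. The pair had 126 shared sites with a median of 0.5 and a coverage of 16 reads, against 40 sites of Glb1 alone with a median of 0.364 and a coverage of 33.5 reads. Galnt4, a mucin-type glycosyltransferase gene, shared 89 sites with the centriole gene Poc1b (median 0.562, against 0.5 for 81 sites of Poc1b alone). Fsbp shared 68 with Rad54b, a DNA recombination gene (0.5, against 0.5385 for 90). Kti12, which is linked to tRNA modification, shared 41 with Txndc12, an endoplasmic reticulum thioredoxin gene (0.625, against 0.417 for 40). In these pairs, too, the shared span held more sites per kb than the rest of the outer gene, for example 26.3 and 1.55 per kb for Kti12 in Txndc12. The highest deep site of Kti12, at 108847992 on chromosome 4, kept 41 of 52 reads unconverted. A pair is in the set only if the inner span has a site, which by itself favours the inner span, so the densities are given as a description.

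For 14 nested pairs without a small RNA the outer gene had no site of its own. Most of these were on the minus strand, which held only 0.9% of all chromosomal sites. Such pairs had few sites, from 5 in Evi2b with Gm21975 to 1 in Cpne1 with Rbm12. The examples that follow have plus-strand sites. Rnf113a2 lies in Bbof1, and all 47 sites in that gene fell in the 1379 bp of Rnf113a2. Chmp1b, which encodes a subunit of the membrane-remodelling ESCRT-III complex, lies in Gnal, a G protein gene of olfactory neurons and the brain. All 38 of their sites fell in Chmp1b, 1.83% of the Gnal span. The deepest pair of replicate calls among shared sites was there, at 67206433 on chromosome 18, with 0.362 and 0.422 (mean 0.392 ± 0.0424, SD, n = 2) and a mean of 87 covering reads. At 67205746, with 113 covering reads, 67 of 92 reads were unconverted (Wilson interval 0.63 to 0.809).

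Insl3, a hormone gene of the testis, lies within the end of Jak3, which encodes a kinase of cytokine receptors in blood cells. The 34 shared sites had a median of 0.728, above the 0.636 of 150 sites of Jak3 alone, and 11 were called in both replicates. Position 71690218 on chromosome 8 had 0.812 in one replicate and 0.898 in the other (mean 0.855 ± 0.0608, SD, n = 2), at 55 covering reads. The window around the Insl3 start shows 4 listed positions in capitals, all of them C and all after the start. It is printed because label and sequence can both be read there.

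Insl3 start (chr8:71689002-71689301, plus strand): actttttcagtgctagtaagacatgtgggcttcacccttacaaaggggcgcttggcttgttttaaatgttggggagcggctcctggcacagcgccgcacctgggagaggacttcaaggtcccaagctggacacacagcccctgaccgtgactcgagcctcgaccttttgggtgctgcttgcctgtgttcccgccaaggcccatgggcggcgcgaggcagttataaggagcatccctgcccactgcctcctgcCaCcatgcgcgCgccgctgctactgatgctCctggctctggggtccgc

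From left to right these had levels of 1 (1 in both replicates), 0.529 (9 of 17 reads), 0.422 (0.4 and 0.444) and 0.7 (7 of 10). Neighbouring cytosines in this stretch thus had levels from 0.422 to 1, and most cytosines between them were not listed.

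Small RNAs inside hosts were many but held few sites. There were 32 combinations of a miRNA and its host with 66 sites (median 0.6) and 26 of a snoRNA and its host with 78 sites (median 0.5425). snoRNAs guide chemical modification of rRNA and are usually cut out of introns. Whether reads at these positions came from the host transcript or from the snoRNA was not tested. Snora52 in Rplp2, a ribosomal protein gene, had 7 sites with a median of 0.917, against 0.615 for 54 sites of Rplp2 alone, the widest difference upward of shared over other sites among the 56 combinations compared. Snora41 in Eef1b2, an elongation factor gene, had 7 sites with a median of 0.5, and Snord57 in Nop56, itself a snoRNP protein gene, had 6 sites with a median of 0.489.

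Partial overlaps were led by Prps1l3 with Mipol1 (85 sites, median 0.538), Adat3 with Scamp4 (48 sites) and Syce1l with Mon1b (41 sites, median 0.545). Adat3 encodes a subunit of a tRNA adenosine deaminase. Its sites had a median of 0.8 with quartiles of 0.61 and 0.902, the highest median of any combination with 10 or more sites together with Pold4. In Mipol1 the position 57239020 on chromosome 12 had 0.499 and 0.537 in the replicates at a mean of 82 covering reads. Nat6 (now Naa80, an actin-modifying acetyltransferase gene) shared 34 sites with Hyal3 and 22 with Hyal1, hyaluronidase-family genes, with medians of 0.5 and 0.583.

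Labels whose sites on the chromosome and strand in question all lay outside their RefSeq span numbered 38, on 2020 pairs of a site and a label, 1917 of them at shared sites and 103 with the label alone. Serpina3g is not counted among the 38: its 77 sites shared with Serpina3f lay outside its span, and it had 62 sites with its name alone. Of the 38, 15 were miRNAs with 930 sites, 12 were transcribed pseudogenes, 1 another pseudogene and 10 were protein-coding genes, and 7 of the 38 lay on the same chromosome as the sites. In each of the 38 tracts, from the first to the last site with the label, 100% of the listed sites on that strand carried it. A tract is defined by its own first and last site, so this share is fixed for the 6 tracts of 1 site, and 30 of the 38 met only 1 other gene. Genes could also continue past a tract: Pdk1 had 94 sites without Mir5098, Otud7b 122 without Mir1946b and Hnrnpa1 47 without its pseudogene labels.

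Mir5098 is the clearest example. RefSeq places its 82 bp on chromosome 5, whereas the label ran over 468701 bp of chromosome 2, from 71420294 to 71888994, on 281 sites. Along the way it was paired with Hat1, a histone acetyltransferase gene (38 sites, median 0.473), Metap1d (71, 0.465), Platr26 (2), the integrin gene Itga6 (133, 0.5, with 23 in both replicates) and the metabolic kinase gene Pdk1 (37, 0.6). The deepest shared site of all, in Hat1 at 71441248 with 155 covering reads, had 80 of 126 reads unconverted (Wilson interval 0.548 to 0.714). In Itga6 the position 71838353 kept 35 of 45 reads unconverted. Mir8115, 119 bp on chromosome 5, ran over 566712 bp of chromosome 11 with 292 sites. It met Trim37, a ubiquitin ligase gene (174 sites, median 0.5415, 31 in both replicates), Ska2 (44, 0.5) and Ptrh2 (12, with 34 of 45 reads unconverted at 86689891), and stood alone at 62 sites between and around them (median 0.545). Mir6989 ran through Havcr2, the gene of the immune receptor TIM-3 (72 sites), and Med7 (38), and Mir1198 through Psma6, a proteasome gene (36), and 1110008L16Rik (22).

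The mature miRNAs of the longest tracts, printed from RefSeq to show what a label of this length refers to, are 21 or 22 bases long. The seed is in capitals.

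mmu-miR-5098 (chr5:77272767-77272787): gUUACAUGgugaagcccaguu
mmu-miR-8115 (chr5:122682664-122682685): cCGCAAUAgcaacaagggcucu

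RefSeq places neither mature sequence on the chromosome where its label was used. Whether the label stands for a further copy there was not tested.

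Pseudogenes and other protein-coding genes made up the rest. Hnrnpa1, an RNA-binding protein gene, carried Gm10052 and Gm5643 as well at 90 sites (median 0.5, 12 in both replicates). Ube2j2, a ubiquitin-conjugating enzyme gene, carried Gm5801 at 105 sites with a median of 0.545, with 33 of 42 reads unconverted at 155957422 on chromosome 4. The median was lower than the 0.859 of its 16 sites with 1 label, the widest difference downward among the 56 combinations compared. Glrx3, a glutaredoxin gene, carried Gm12669 at 98 sites (median 0.569). Oaz1, which limits polyamine synthesis, carried Oaz1-ps at 73 (0.6), and Hnrnpa3 carried Gm6793 at 67 (0.6). The interferon-induced gene Ifi47 carried the olfactory receptor name Olfr56 at 80 (0.5), and a further 25 sites had Olfr56 alone. RefSeq places Olfr56 on the same chromosome and strand, from 49134173 to 49135387, past the last site with this label at 49125450. Why Ifi47 carried the name was not tested. Whether reads of a gene and of a copy were told apart was not tested, and the levels of genes with a pseudogene or related copy are uncertain to that extent.

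Ubb, a polyubiquitin gene that carried Gm1821, had 21 shared sites, 11 of them in the window around 1 of its RefSeq starts. It had the most shared sites of any promoter window, and is shown with the listed positions in capitals.

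Ubb start (chr11:62551481-62551780, plus strand): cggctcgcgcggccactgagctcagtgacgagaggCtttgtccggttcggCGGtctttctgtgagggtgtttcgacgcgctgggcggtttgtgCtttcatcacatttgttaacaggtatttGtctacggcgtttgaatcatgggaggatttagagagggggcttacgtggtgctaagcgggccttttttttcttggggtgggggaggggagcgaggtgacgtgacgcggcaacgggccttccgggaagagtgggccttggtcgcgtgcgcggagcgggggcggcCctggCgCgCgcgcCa

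RefSeq gives Ubb more than 1 start, and this window belongs to the start at 62551731, inside the gene span that begins at 62551171. Of these 11 sites 6 lay before the start at 62551731, and all 11 lay inside the gene span. Of the 11, 8 were C and 3 were G, and 0 were called in both replicates. Before that internal start the levels lay between 1 (10 of 10 reads) at the first position and 0.533 (8 of 15) at the last. After it they were 0.4, 0.455, 0.4, 0.5 and 0.8, from 10 to 12 reads each. With so few reads the Wilson intervals, such as 0.722 to 1 for the first and 0.49 to 0.943 for the last, overlapped for many of the pairs.

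Labels without a RefSeq match gave, beside the Raet1 genes described next, H2-D1 with H2-L, class I antigen-presentation genes (37 sites, median 0.522), and Lgals4 with Lgals6, galectin genes (35 sites, median 0.571). Hjurp shared 1 site with its older name A730008H23Rik.

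Combinations with 3 or more labels numbered 13, with 289 sites. Beside Hnrnpa1 and Xntrpc, the most sites were in C920009B18Rik with Raet1a, Raet1b and Raet1c, genes of ligands for an activating receptor of natural killer cells (58 sites, median 0.564, 9 in both replicates). The protocadherin gamma cluster on chromosome 18, whose genes share their last exons, gave 33 sites with 25 labels each (median 0.576, 7 in both replicates). Of the Ugt1a glucuronosyltransferase genes, which also share their last exons, 8 were named together at 21 sites (median 0.464, 4 in both replicates).

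Shared sites could be set against sites with 1 of the same labels alone in 56 combinations with at least 5 sites on each side. Trim37, Ska2 and Ptrh2 had no site with the gene name alone, and all were set against the same 62 sites of Mir8115 alone. Havcr2 and Med7 were likewise set against the same 6 sites of Mir6989 alone. Sites of Raet1a alone and of Gm20605 alone also entered more than 1 combination. The 56 combinations are thus not all separate comparisons. The shared median was higher in 31, lower in 24 and equal in 1, and the median difference was 0.028 (range -0.314 to 0.302). Coverage was higher in 23 and lower in 31, and the share called in both replicates higher in 26 and lower in 29. Nested pairs had the shared median higher in 13 of 21, with coverage lower in 17. Sites of a pair share libraries and reads, and these differences were not tested.

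**Figure D4:**
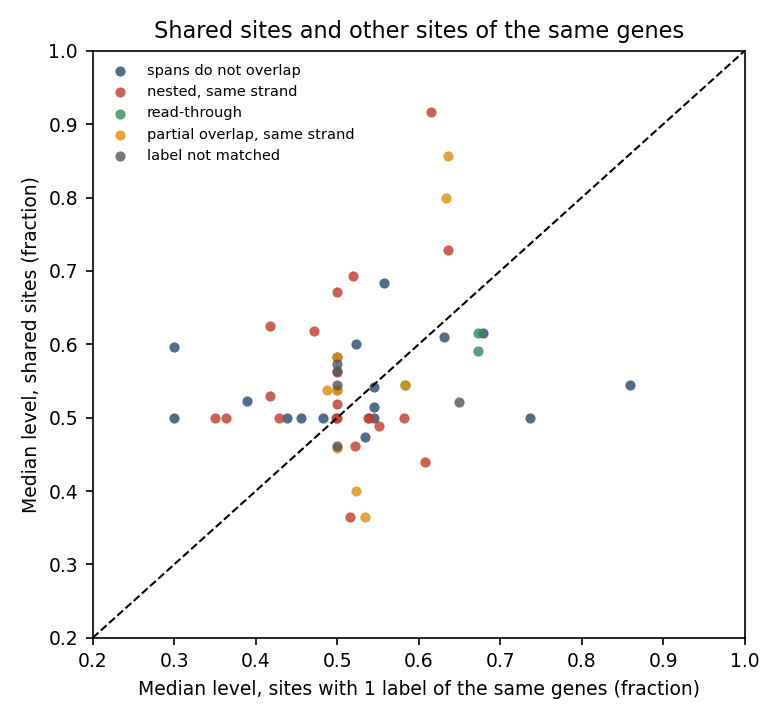
Median level of shared sites (vertical axis, fraction) against that of sites with 1 of the same labels alone (horizontal axis, fraction). Each point is 1 combination with at least 5 sites of each kind, coloured by arrangement. The dashed line marks equality. Some sites with 1 label enter more than 1 point. Points lie on both sides, 31 above and 24 below, with Rplp2 and Snora52 highest at 0.917 and Ube2j2 with Gm5801 farthest to the right at 0.859.

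Depth limited what single sites can say. Only 171 shared sites, in 47 combinations, had 50 or more covering reads, and their median level was 0.409. Among plus-strand shared sites the median was 0.545 at 10 to 14 covering reads and 0.42 at 50 or more, and plus-strand sites with 1 label had 0.545 and 0.439 in the same bins. At the extremes of level 216 shared sites stood at 1 and 156 at the lowest listed level of 0.2.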

How the data were processed

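Poly(A) RNA was bisulfite-treated and sequenced in 2 WT and 2 Tet2 KO libraries. The build is mm10 per the submitters' processing notes. Aligner, caller, versions and library totals are not given in the sources used. Per the file headers, the authors deposited for each site the covering and unconverted reads, a score that is a mean rounded to whole reads where both KO replicates made the call. The deposited level is a fraction, with its SD over the calling replicates. The p-values and normalized scores that the authors deposited were not used.

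Sites on chromosomes with at least 2 different comma-separated labels were taken. Members and lists were chosen with earlier results of these data known. The rule for names was: the 10 combinations with most sites, the 10 highest sites at 50 or more reads (1 per combination), the 3 combinations with most sites per class, the 5 with most sites among those of 3 or more labels, and the 5 with most sites in both replicates. Others named are examples chosen after their values were seen, as were the sequences. A combination that the rule names is not reported here.

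Labels were matched to RefSeq (GRCm38.p6), 359 of 364, 338 of them by symbol. A read-through had a joint name or a span covering neighbouring genes within 2000 bp. Spans, not exons, set the classes, and strand came from RefSeq sequence tables, with an unknown strand counted as the same. Reads used were unconverted reads over the level, whole at 100% of single-call sites (tolerance 0.0006). For sites with 2 calls the replicate values are the level plus and minus the deposited SD, read as a population SD. Which library had which is not known. Printed SDs are sample SDs. Columns of another series' samples numbered 0. No test was made, because sites are not replicates. Intervals (95%, Wilson for levels, exact Clopper-Pearson for shares) cover counting error only. Class rules were tested on simulated data. Python 3.11.15, pandas 2.3.3 and scipy 1.17.1 were used.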

Additional observations from a re-analysis of the deposited data

How the results depend on the processing

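No paired analysis was possible because the table used here has no single-library values, and for the same reason no replicate was left out in turn. Of 84 recomputed values 47 stayed within the limits used (1.5 times for counts and coverage, the median replicate SD of 0.0707 for levels, the exact interval for shares) and 37 moved. The limit for levels is a spread of single sites, wide for a median of many, so levels are given as a range. The median level stayed between 0.5 and 0.538 under every alternative run except at 50 or more covering reads, where it was 0.409. Fewer sites enter these alternatives by construction. At 20 or more covering reads 1775 shared sites remained (coverage 27), 17.5% of them called in both replicates. Read-through then had 468 sites, nested 382, partial overlap 114, spans that do not overlap 701, 1 gene under 2 names 43 and unmatched labels 67. At 50 or more reads 171 remained (coverage 62), and the same classes had 55, 32, 4, 75, 1 and 4. Sites called in both replicates numbered 647, by class 141, 154, 46, 261, 24 and 21. Sites with no other listed site within 10 nt numbered 1342, with 12% in both replicates, by class 332, 301, 83, 536, 33 and 57. Without miRNA, snoRNA, scaRNA and Y RNA labels, spans that do not overlap fell from 1904 sites to 1051. With current RefSeq symbols 1 gene under 2 names had 0 sites, and without the largest combination (Akap2 with Pakap, tied with Cmtr1 and its read-through) it had 1. Chosen after seeing the data were plus-strand sites alone, which moved nothing, and combinations whose spans overlap in RefSeq, which kept 2383 of the 4646 sites.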
